A study of Arabidopsis thaliana with 12 samples.

Results

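The 9 genes described here fell strongly in the stn7 mutant of Arabidopsis thaliana. They are AT3G09080, MAMI (AT5G54110), AT4G25290, AT2G36480, AT4G27510, AT2G04790, chr31 (AT1G05490), XERICO (AT2G04240) and AT2G39000. Each was the only gene annotated to its probe, and the 9 probes were taken from 3437 with values, of which 3248 were kept as features and 650 of these carried a single gene name. The genes were chosen from their stn7 minus WT difference, so their levels and differences are given as a description without a test. The 9 are not all the named genes with such falls, since 36 named features fell at least as far as XERICO, the member with the smallest fall.

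The study compared 6 samples titled as the stn7 mutant with 6 titled as wild type (WT), both in the Columbia ecotype, on 1-channel arrays of total RNA. The labels give no allele, age, tissue, light condition or treatment for either group. Only stn7 sample 1 also has the mutant as its source name, and the other 5 samples titled stn7 carry the source name of the WT. Samples 1 and 2, 3 and 4, and 5 and 6 of a group deviated together from their group mean, so the mean of the samples in a pair was taken as 1 replicate, numbered 1 to 3, and n = 3 per group. Nothing in the labels says that replicates came from separate plants, so errors measure only the spread between these samples, and the number of arrays limits the precision. Array medians lay between 0.354 and 0.414 in stn7 samples and between 0.297 and 0.369 in WT samples, and quantile normalization was applied before differences were taken.

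STN7 is a protein kinase of the chloroplast thylakoid membrane. It phosphorylates antenna proteins of photosystem II when the plastoquinone pool is reduced, which lets part of the antenna move to photosystem I in a state transition. The same kinase is known for its part in longer-term acclimation, in which the redox state of the electron transport chain is relayed to nuclear and plastid gene expression. STN7 was on no probe with a gene entry, so the mutated gene did not check the labels. The 9 genes are not known as members of 1 pathway. Among those with an established name, XERICO encodes a small RING-H2 zinc-finger protein whose overexpression raises abscisic acid levels and drought tolerance, MAMI is named for a membrane-associated protein induced by mannitol, an osmotic agent, and chr31 encodes an SNF2-type chromatin remodelling protein, also called CLASSY3, of RNA-directed DNA methylation. AT2G39000 belongs to the GNAT family of acetyltransferases, several of which act in plastids, and AT4G25290 is a photolyase-like gene. The gene table used here gives no function for AT3G09080, AT2G36480, AT4G27510 and AT2G04790, and they are described by locus.

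All 9 genes were lower in stn7. In the 8 genes with all samples above the floor that was set on low values, the differences lay between -1.64 and -0.84 log2, or 3.12-fold to 1.80-fold. For AT2G39000 the size was set by that floor, at -1.70 log2 with the floor used here and -0.58 log2 with a higher one. In all 9 every stn7 sample lay below every WT sample in the deposited intensities, which held for 7.54% of the 3437 probes. All 9 passed an adjusted p of 0.05 in limma as lower, against 8.68% of the 3248 features, or 282. Their choice from this contrast fixes both counts, and nothing is read from them. The count of 9 also depended on which replicates were kept. Without stn7 replicate 1 only AT2G39000 passed (and 4 features in all, against 494). The stn7 samples of AT2G39000 were all set to the floor, which fixed their SD at 0.00 log2. Its passing here and below therefore says nothing about how stable its fall was. Without WT replicate 2 only AT3G09080 and AT2G39000 passed, and without WT replicate 1 only 4 of the 9. Leaving out any other replicate kept all 9. The differences themselves stayed below 0 with 1 replicate left out, from -1.75 to -1.53 log2 for AT3G09080 and from -0.93 to -0.79 log2 for XERICO. The median difference was -1.36 log2 over the 9 genes and 0.05 log2 over all features. Intensities below are relative values as deposited, log2 differences are those after quantile normalization unless stated, and brightness cannot be compared between probes.

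XERICO, the RING-H2 gene, was lower in stn7 by less than the other genes above the floor. Its 3 stn7 replicates had 2.91, 3.27 and 2.92, against 5.29, 6.06 and 6.56 in the WT replicates. Over the 6 single samples the range was 2.83 to 3.34 in stn7 (median 2.98) and 5.21 to 6.67 in WT (median 6.06). The groups were well apart, and both samples of a pair were close, with a largest within-pair difference of 0.08 log2. XERICO averaged 3.03 ± 0.200 in stn7 and 5.97 ± 0.642 in WT (SD, n = 3 each). The difference was -0.84 log2 (SE 0.15), and in the values as deposited it was -0.97 log2 (SE 0.16). With arrays centred on their median it was -1.21 log2, a shift larger than the spread between replicates.

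MAMI, the mannitol-induced gene, had 0.268, 0.317 and 0.343 in the stn7 replicates and 0.993, 0.854 and 0.551 in the WT replicates. Single samples ran from 0.240 to 0.395 in stn7 (median 0.304) and from 0.509 to 1.09 in WT (median 0.833). The WT samples differed 2.14-fold among themselves, the widest WT range of the 9 genes, and WT samples 5 and 6 were the lowest. The difference was -1.51 log2 (SE 0.19), with an SD of 0.07 log2 in stn7 and 0.34 log2 in WT. In the deposited values the stn7 minus WT difference was -1.34 log2 (SE 0.24).

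By its replicate means the chromatin remodelling gene chr31 varied least in WT among the 9 after quantile normalization (SD 0.02 log2, n = 3). It had 0.698, 0.824 and 0.636 in the stn7 replicates and 1.44, 1.49 and 1.42 in the WT replicates. The 6 samples ran from 0.623 to 0.929 in stn7 (median 0.698) and from 1.39 to 1.59 in WT (median 1.43). Sample 4 was the highest in each group. Averaging hid part of the spread in WT, where samples 3 and 4 lay at 0.43 and 0.67 log2 after normalization. The stn7 mean was 0.719 ± 0.0959 and the WT mean 1.45 ± 0.0346 (SD, n = 3 each), a difference of -1.09 log2 (SE 0.16), or -1.02 log2 (SE 0.16) as deposited.

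AT2G39000, the GNAT acetyltransferase gene, was near 0 in all stn7 samples. Its deposited intensities in stn7 samples 1 to 6 were 0.0374, 0.0193, 0.0225, 0.0420, 0.00 and 0.0546. In WT samples 1 to 6 they were 0.196, 0.213, 0.245, 0.189, 0.213 and 0.193. All 6 stn7 samples lay at or under the floor of 0.0702 set on normalized intensities, while no WT sample did, so the fitted difference of -1.70 log2 (SE 0.14) is set by the floor. With the floor at the 20th percentile in place of the 10th it was -0.58 log2. The floor also left no spread between the stn7 replicates (SD 0.00 log2), so the SE is partly set by it. The lowest WT sample was 3.45-fold above the highest stn7 sample as deposited. How a deposited value of exactly 0 arose is not given in the sources used here.

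AT4G25290, the photolyase-like gene, had 0.494, 0.577 and 0.783 in the stn7 replicates and 1.27, 1.46 and 1.97 in the WT replicates. Samples ran from 0.469 to 0.862 in stn7 (median 0.577) and from 1.27 to 2.01 in WT (median 1.46). In both groups samples 5 and 6 were the brightest, and the groups did not overlap. The difference was -1.42 log2 (SE 0.22), with an SD of 0.29 log2 in stn7 and 0.32 log2 in WT, and as deposited it was -1.35 log2 (SE 0.24).

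AT3G09080 had the largest fall among the 8 genes whose samples all lay above the floor. Its replicates gave 0.944, 1.04 and 0.892 in stn7 and 2.57, 2.97 and 3.54 in WT. The range over samples was 0.869 to 1.11 in stn7 (median 0.936) and 2.48 to 3.57 in WT (median 2.97). The lowest WT sample was 2.22-fold above the highest stn7 sample, the widest gap among these 8 genes. AT3G09080 averaged 0.957 ± 0.0722 in stn7 and 3.03 ± 0.485 in WT (SD, n = 3 each). The difference was -1.64 log2 (SE 0.17) after quantile normalization and -1.65 log2 (SE 0.18) as deposited.

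AT2G36480 had 0.338, 0.429 and 0.266 in the stn7 replicates against 0.693, 0.950 and 0.696 in the WT replicates, with samples between 0.251 and 0.438 in stn7 (median 0.338) and between 0.569 and 0.966 in WT (median 0.786). Samples 3 and 4 were the brightest in both groups. Its SD of 0.40 log2 in stn7 was the widest of the 9 genes in that group, and the difference was -1.36 log2 (SE 0.23), or -1.18 log2 (SE 0.23) as deposited.

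AT4G27510 had 0.232, 0.216 and 0.185 in the stn7 replicates, with samples from 0.179 to 0.270 (median 0.197). The WT replicates had 0.454, 0.444 and 0.435, with samples from 0.429 to 0.464 (median 0.442). The WT samples were nearly level, and sample 1 was the highest of the stn7 samples. The difference was -1.32 log2 (SE 0.19), and -1.09 log2 (SE 0.16) as deposited. With stn7 sample 1 alone, the only sample with the mutant source name, set against the WT replicates, it was -0.78 log2. AT4G27510 was the only member that moved by more than the replicate SD there. The other members ran from -1.72 log2 (AT3G09080) to -0.85 log2 (XERICO) in that sample.

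AT2G04790 had 0.574, 0.673 and 0.548 in the stn7 replicates and 1.52, 1.49 and 0.989 in the WT replicates. Samples lay between 0.507 and 0.699 in stn7 (median 0.604) and between 0.978 and 1.54 in WT (median 1.47). As in MAMI, WT samples 5 and 6 were the lowest of the WT samples. The difference was -1.25 log2 (SE 0.19), or -1.13 log2 (SE 0.21) as deposited.

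**Figure D1:**
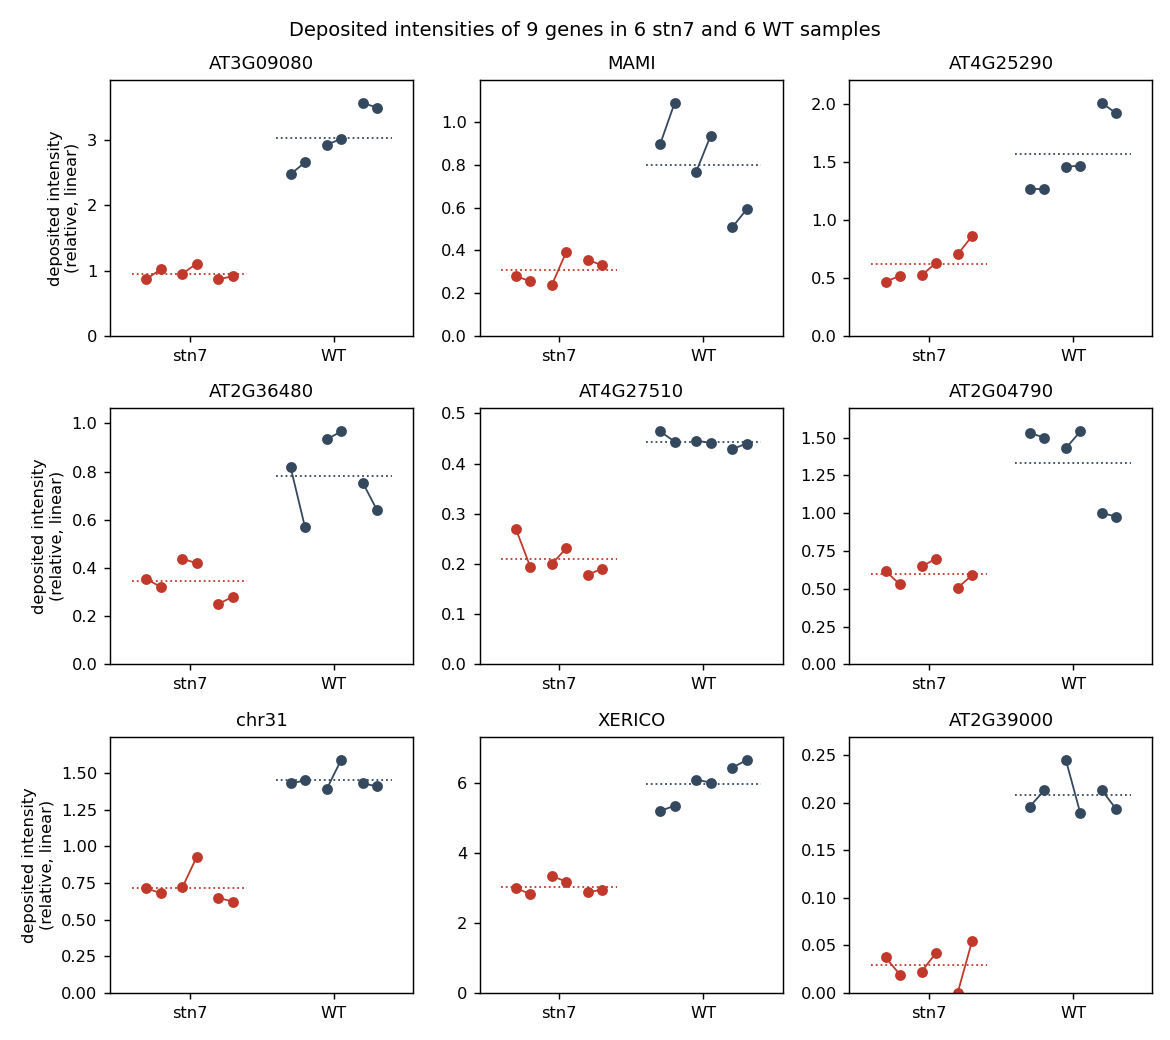
Deposited relative intensity (linear axis from 0) of each gene in the 6 stn7 samples (left, red) and the 6 WT samples (right, dark), where lines join consecutive samples counted as 1 replicate and dotted lines mark group means. Every stn7 sample lies below every WT sample in all 9 genes, and as a ratio of highest to lowest the WT samples spread most in MAMI (2.14-fold, 0.509 to 1.09) and least in AT4G27510 (1.08-fold, 0.429 to 0.464).

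The fall of each gene was next set beside the probes with the nearest probe numbers, because differences on these arrays followed the probe number. The 9 probes were not close to each other: the nearest pair of members was 165 numbers apart, and each lay in a different one of 48 sets of 6 consecutive numbers that recur at a fixed distance along the array. Within 6 numbers on either side the members had 66 measured neighbours. Of these 47, or 71.2%, were lower in stn7, against 45.3% of all features. Adjacent probes were called lower in limma in 16 cases (24.2%, against 8.68% of all features) and higher in 1. The median of the neighbours was at or below 0 for all 9 genes, from -0.53 log2 beside chr31 to 0.00 log2 beside AT4G27510. Because differences followed the probe number, choosing genes for large falls favours falling neighbours too. Nothing about the 9 genes is read from these shares.

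Relative to their neighbours the genes were still lower, by between 0.38 and 1.50 log2, with a median of -1.11 log2 against 0.00 log2 over the 3247 features with at least 3 neighbours. In all, 8 of the 9 were at least 0.5 log2 below the neighbour median, as were 12.3% of all features, but the choice of the genes for large falls favours such a count. In 7 of the 9 genes the member fell further than every neighbour, and 2 of the 66 neighbours fell further than the member beside them. The choice of the genes favours these counts too, no share over all features is given for them, and nothing is read from them. MAMI (8 neighbours, median -0.01 log2) and AT4G27510 (7 neighbours, median 0.00 log2) were at -1.50 and -1.31 log2 relative to their neighbours. Their neighbours were level only in the median, since those of MAMI ran from -1.03 to 0.35 log2 with 2 called lower, and those of AT4G27510 from -0.93 to 0.25 log2 with 1 called lower. The window of MAMI crossed set edges: neighbours in its own set ran from -1.03 to -0.42 log2. Those in other sets ran from -0.09 to 0.35 log2. AT2G39000 was at -1.39 log2 relative to 8 neighbours with a median of -0.31 log2, a size that again rests on the floor. AT3G09080 was at -1.13 log2, beside 8 neighbours with a median of -0.52 log2 and a lowest of -1.16 log2. AT2G36480 was at -1.07 log2 relative to its 8 neighbours, which ran from -0.56 to 0.30 log2 with none called.

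The values of the 4 remaining genes were as follows. AT4G25290 was at -1.11 log2 relative to 6 neighbours, but these were scattered, from -2.01 log2 for the probe 1 number below it to 0.93 log2. AT2G04790 (-0.90 log2 relative to 8 neighbours) lay 1 number from AT2G38550, which was at -1.06 log2 (SE 0.18), and 1 number from AT4G20760 at -0.72 log2. Both were picked out here after their values had been seen. Its value relative to its neighbours depended on the window, at -0.53 log2 with 3 numbers on either side and -1.25 log2 with 12. Against its set it was at -0.71 log2. The windows crossed set edges: neighbours in its own set ran from -1.06 to -0.35 log2, and those in other sets from -0.34 to 0.54 log2. For chr31 the neighbour median of -0.53 log2 equalled 48.6% of its own difference, and 3 of its 7 neighbours were called lower. This left chr31 at -0.56 log2 relative to them, but it was at -0.95 log2 with 3 numbers on either side, -0.90 log2 with 12 and -0.91 log2 against its set. XERICO was at -0.38 log2 relative to 6 neighbours whose median was -0.47 log2, and 1 of them, at -0.94 log2, fell further. With 3 or 12 numbers on either side it was at -0.42 and -0.44 log2, and against its set at -0.75 log2. The part of the neighbours in these falls was not tested beyond these differences.

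**Figure D2:**
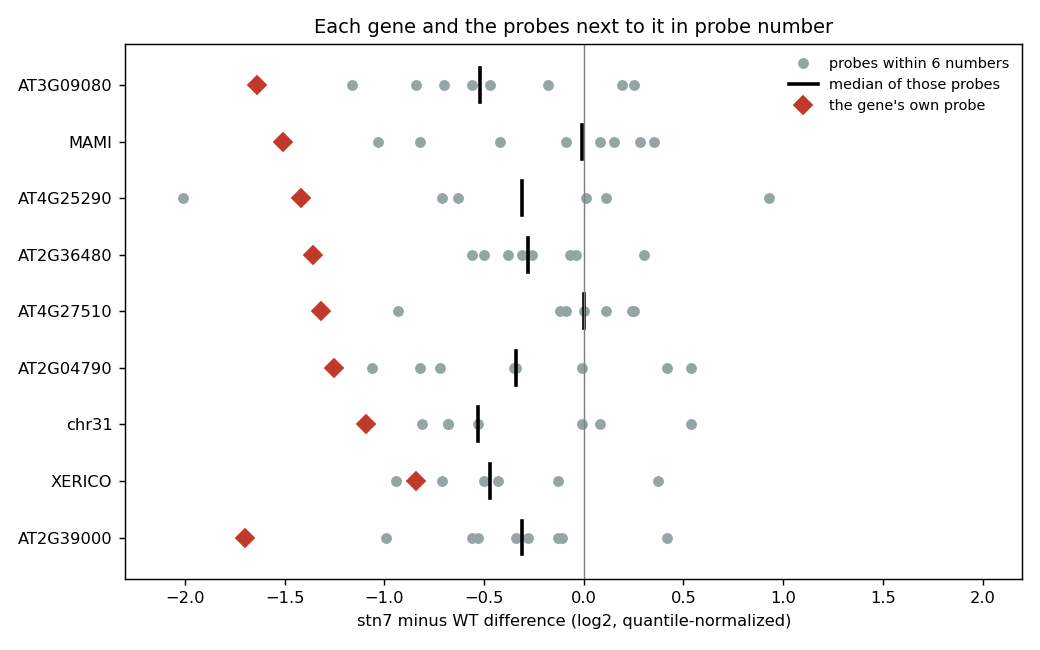
The stn7 minus WT difference (log2, quantile-normalized) of each gene (red diamonds), of the probes within 6 probe numbers (grey points) and their median (black bars). The diamonds lie left of all grey points in 7 of 9 rows, the exceptions being AT4G25290 and XERICO, which the choice of the genes for large falls favours. The black bars lie at or left of 0 in all rows.

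The same comparison was made over these wider sets. The medians of the 48 sets ran from -0.62 to 0.63 log2. All 9 genes lay in sets with a median below 0, from -0.54 log2 for AT2G04790 to -0.04 log2 for AT2G36480. So did 80.3% of the named features of chromosomes 2 and 4 and 22.7% of those of chromosomes 1, 3 and 5. The choice of the genes for large falls favours such sets. With every replicate centred within these sets, the difference was -1.48 log2 for AT3G09080 (SE 0.14), -1.26 log2 for AT2G36480 (SE 0.20), -1.21 log2 for AT2G39000 (SE 0.15), -1.17 log2 for AT4G25290 (SE 0.18) and -1.12 log2 for AT4G27510 (SE 0.19). It was -1.01 log2 for MAMI (SE 0.14), -0.85 log2 for chr31 (SE 0.17), -0.67 log2 for AT2G04790 (SE 0.16) and -0.65 log2 for XERICO (SE 0.15). The value of AT2G39000 rests on the floor here as well. The order of the genes therefore changed: among the 650 named features AT2G04790 had the fall of rank 12 before centring and 25 after it, while AT2G36480 had rank 8 before and 2 after. Windows and sets gave unlike answers for some genes. MAMI had close neighbours with a median near 0 but a set median of -0.53 log2. Its window crossed set edges, and the close neighbours in its own set ran from -1.03 to -0.42 log2. XERICO had falling close neighbours but a set median of -0.10 log2.

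**Figure D3:**
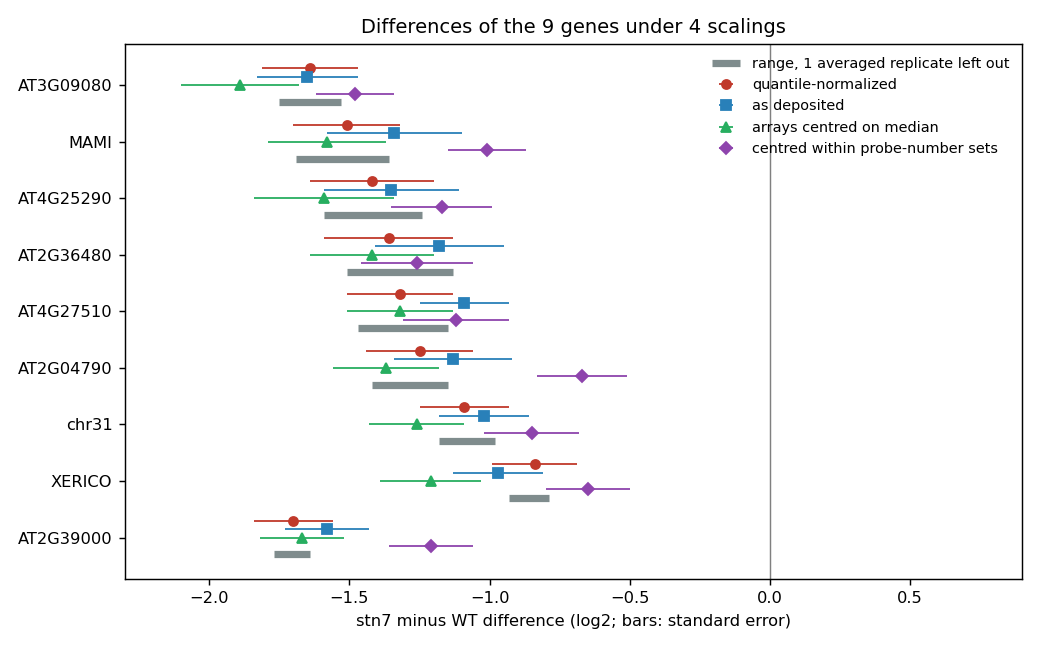
Differences of each gene (log2, with standard errors of limma, n = 3 per group) after quantile normalization, as deposited, with arrays centred on their median and centred within probe-number sets, and the range when 1 averaged replicate was left out (grey bars, quantile-normalized). All values lie below 0, and set centring moved AT2G04790 to -0.67 log2 and MAMI to -1.01 log2, with AT2G36480 at -1.26 log2.

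The chromosomes of the genes also went with the differences. By their loci 4 of the 9 genes lie on chromosome 2, 2 on chromosome 4 and 1 each on chromosomes 1, 3 and 5. Of the 239 named features of chromosomes 2 and 4, 49 (20.5%) were called lower and 10 higher, and of the 410 of chromosomes 1, 3 and 5, 11 (2.68%) were called lower and 38 higher. The median difference was -0.19 log2 on chromosome 2 and -0.23 log2 on chromosome 4, against 0.09, 0.21 and 0.24 log2 on chromosomes 1, 3 and 5. In the deposited values these medians were -0.05 and -0.17 log2 on chromosomes 2 and 4, against 0.27, 0.39 and 0.43 log2. Chromosome and probe-number set also went together. Of the named features of chromosomes 2 and 4, 80.3% lay in sets with a median below 0, against 22.7% for chromosomes 1, 3 and 5. These set medians come from the same differences, so position on the array and chromosome cannot be told apart here. Set centring can remove a difference of either kind. After set centring the 5 chromosome medians lay between -0.05 and 0.05 log2, with 14 features called lower and 5 higher on chromosomes 2 and 4, and 8 lower and 6 higher on the other 3. AT3G09080 (chromosome 3), MAMI (chromosome 5) and chr31 (chromosome 1) are the members outside chromosomes 2 and 4, and of these 3 AT3G09080 had the lowest set-centred value of all named features.

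**Figure D4:**
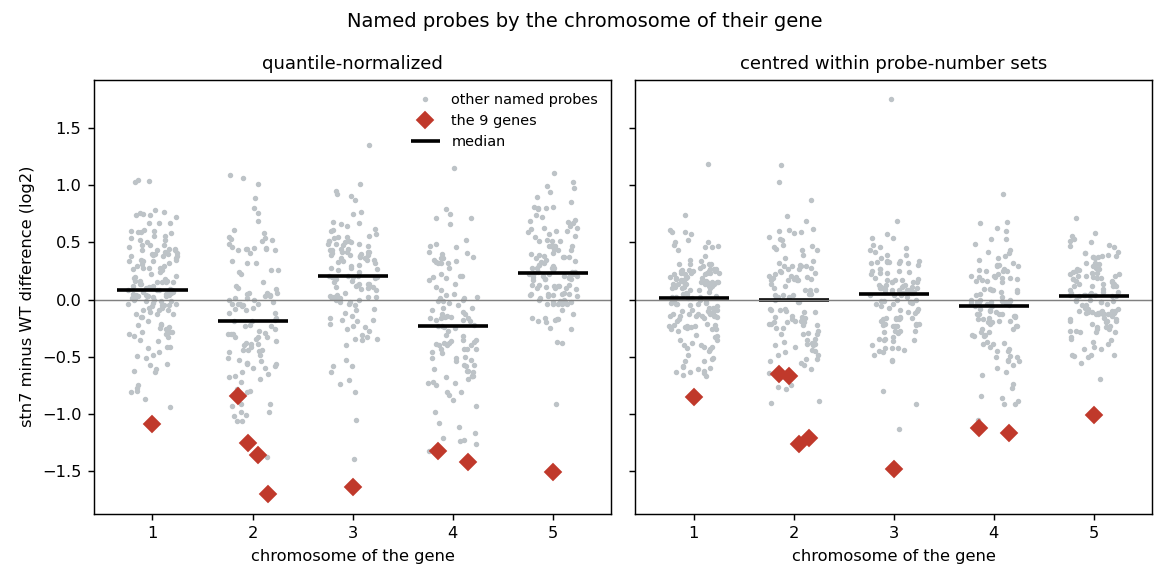
The stn7 minus WT difference (log2) of named features by the chromosome of their gene, after quantile normalization (left) and after centring within probe-number sets (right), with the 9 genes as red diamonds and black bars at the medians. The medians of chromosomes 2 and 4 (-0.19 and -0.23 log2) lie below those of chromosomes 1, 3 and 5 on the left, and all 5 lie between -0.05 and 0.05 log2 on the right.

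Within the groups the genes did not vary alike. In WT replicate 3, AT4G25290 lay 0.36 log2 above and AT3G09080 0.22 log2 above the WT mean, while MAMI deviated by -0.37 log2 and AT2G04790 by -0.34 log2. Their neighbours moved the same way in 3 of these 4 cases: the neighbour median was at 0.52 log2 beside AT4G25290, 0.24 log2 beside AT3G09080 and -0.19 log2 beside AT2G04790. Beside MAMI it was 0.12 log2, although the set of MAMI was at -0.45 log2 in that replicate. In stn7 replicate 3 AT2G36480 deviated by -0.45 log2 and AT4G27510 by -0.33 log2, with their neighbours at -0.20 and -0.21 log2. This was not general: in each replicate between 4 and 7 of the 9 genes deviated in the same direction as their neighbours, with 4 of 9 in WT replicate 3. AT2G39000, at the floor in all stn7 replicates, was counted in those as not doing so.

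For each gene the named feature with the nearest pattern was sought by the root mean square distance over the 6 replicates, each feature centred on its own mean, among 641 candidates. The closest match was AT2G46300 for chr31, at a distance of 0.06 log2, with means of -0.34 log2 in stn7 and 0.73 log2 in WT. AT2G05120 was nearest to XERICO (0.10 log2), AT4G38020 to AT4G27510 (0.12 log2), AT4G38040 to AT2G36480 (0.17 log2) and AT2G03390 to AT4G25290 (0.22 log2). AT3G26630, a pentatricopeptide repeat gene, was nearest to 3 genes, AT2G39000 (0.17 log2), AT3G09080 (0.19 log2) and MAMI (0.24 log2). The pattern of AT2G39000 was set by the floor in stn7. AT2G04790 was nearest to AT2G38550 (0.12 log2), its neighbour by 1 probe number, and in the other 8 cases the match lay in another set, at least 143 numbers away.

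Genes related to the members were mostly not measured on probes with a single gene. Lists of 58 distinct genes covered RNA-directed DNA methylation (13 genes, for chr31), plastid GNAT acetyltransferases (7, for AT2G39000), abscisic acid synthesis and signalling (11, for XERICO), photolyases and cryptochromes (5, for AT4G25290), mRNA 3′ processing (9), state transitions (8), and root, seed and senescence markers (6 in all). Only AT1G24040, a GNAT acetyltransferase gene, was on such a probe, and 0 members of the other lists were. AT1G24040 had -1.25 log2 in stn7 and -1.04 log2 in WT, a difference of -0.21 log2 (SE 0.15) that did not pass (limma, adjusted p = 0.381). A further 2 GNAT genes were on probes with several genes and are not reported. At the edge of the selection, AT1G15140 fell slightly further than XERICO (-0.87 log2) without being a member, and AT4G26370 slightly less (-0.83 log2).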

How the data were processed

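A single table covered all 12 samples. Its deposited values are intensities on a linear scale, never below 0; how the authors scanned, corrected, scaled and laid out the arrays is not given in these sources. The platform annotation named 1 gene for 692 of 3437 probes, several for 869 and none for 1876; symbols were updated through the RefSeq gene table of TAIR10.1, which held all 692. Arrays were quantile-normalized, values under the 10th percentile (0.0702, -3.83 log2) set to it, 188 probes at this floor in all 12 samples left out, and probes of 1 locus averaged. Consecutive samples were averaged: their deviations correlated at 0.188 to 0.632, against at most 0.146 for other samples of a group. Each feature went through limma 3.58.1 (lmFit, then eBayes, in R 4.3.3), Benjamini-Hochberg adjusted over 3248 features and called under 0.05. The fit was tested on simulated data with independent noise and no effect of probe number, unlike these arrays. Sets of 6 probe numbers recurring along the array were centred by subtracting, per replicate, their median deviation from the feature means. Replicates of the same number correlated weakly but positively between groups, at 0.171, 0.120 and 0.0901. These values do not exclude a pairing. The main fit assumed none, and a fit with the replicate as a block is given as an alternative. The members, lists, sets and alternatives were chosen with earlier results of these data known. Named are the 9 members, the nearest pattern of each, measured list members and the 2 genes at the edge of the selection. Plots used matplotlib 3.10.9 (Python 3.11.15). No sequences were used here.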

Additional observations from a re-analysis of the deposited data

Results flagged for a closer look

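In 18 groups of 6 samples (9 genes in 2 genotypes), 2 samples stood apart from the others of their group by Dixon's criterion, and chance flags about 1 in 20 groups. Both were chr31 in sample 4, with a deposited intensity of 0.929 in stn7 (next 0.720) and 1.59 in WT (next 1.45). In both genotypes it was the highest sample, and the groups did not overlap.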

How the results depend on the processing

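No difference of the 9 genes changed direction in 29 alternative settings. Of 260 values 242 moved by less than the replicate SD and 18 by more. Those 18 included median centring of arrays for AT3G09080 (-1.89 log2), chr31 (-1.26) and XERICO (-1.21), the floor at the 20th percentile for AT2G39000 (-0.58), and set centring for 5 genes. The differences from neighbouring probe numbers were less stable: over 3 other choices of neighbours 12 of 27 values moved by more than the replicate SD (chr31 in all 3, AT3G09080, AT2G04790 and AT2G39000 in 2 each), and none changed direction. AT2G39000 was below the limit of the filter on dim features and has no value there.

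Against 494 features and 9 members called lower, leaving out 1 averaged replicate gave 4 to 284 features and 1 to 9 members: without stn7 replicate 1 (samples 1 and 2) 4 features and 1 member (AT2G39000), without WT replicate 2 30 and 2 (AT3G09080 and AT2G39000), and without WT replicate 1 45 and 4. The calls of AT2G39000 rest on the floor, which fixed its spread in stn7. Without WT replicate 3, stn7 replicate 2 or stn7 replicate 3 the counts were 272, 284 and 218, and all 9 members were called. Leaving out 1 sample gave 419 to 493 features and 9 members each time. Taken as 12 separate samples, 1283 features and 9 members were called. With only the stn7 sample that has the mutant source name, all 9 differences stayed below 0. They ran from -1.72 log2 for AT3G09080 to -0.78 log2 for AT4G27510. The single sample with the mutant source name gave 8 features and 0 members by limma, assuming that it varies like the WT; the cause was not tested. The spread of a single sample is not measured, so nothing about the other samples titled stn7 is read from these counts. Set centring gave 188 features and 9 members, and with the replicate block 86 features and 7 members, AT2G04790 and XERICO missing the threshold. The replicate block alone gave 407 features and 9 members. The split of calls moved with the scaling, with 212 higher and 282 lower after quantile normalization, 289 and 179 as deposited, and 133 and 347 with median centring, where the median over all features was 0.05, 0.19 and -0.03 log2. Signal over background is not known.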
